A study of Mus musculus with 6 samples.

Results

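The 10 genes described here encode the enzymes and helper proteins that build coenzyme Q (ubiquinone), the lipid that carries electrons in the inner mitochondrial membrane. They are Pdss1, Coq2, Coq3, Coq4, Coq5, Coq6, Coq7, Coq8a, Coq8b and Coq9. They were taken by gene name from deposited tables of liver RNA sequencing, in which all 10 had 1 row each among the 15454 genes of the count table. Results in this comparison were known when the set was put together, so the differences of its members, and the number of them that pass a threshold, are given as a description, with no p-value for a member.

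Livers of male C57BL/6 mice aged 8 to 10 weeks were studied after warm ischemia and reperfusion (I/R), in which blood flow to 75% of the liver was cut off and then restored. All 6 mice underwent this operation. The 3 mice of the I/R group received the vehicle solution, and the 3 mice of the I/R+Rk2 group received ginsenoside Rk2, a saponin derived from ginseng, dissolved in that vehicle. Both were given before the operation and again at the start of reperfusion. Libraries were made from 250 ng of total RNA per liver. No sham-operated liver was analysed here, so the values say nothing of the level in an uninjured liver.

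Coenzyme Q consists of a ring derived from tyrosine and a long isoprenoid tail made from products of the mevalonate pathway. PDSS1 and PDSS2 form the enzyme that builds the tail, COQ2 joins tail to ring, and a series of enzymes on the matrix side of the inner membrane then hydroxylate and methylate the ring. Several of these proteins assemble into a complex (complex Q), in which COQ4, COQ8A, COQ8B and COQ9 have supporting roles. The finished molecule takes electrons from complex I, from succinate dehydrogenase and from other dehydrogenases, and hands them to complex III. Its reduced form is also a lipid antioxidant, and reperfusion is a setting in which lipid oxidation has been widely studied.

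COQ8A and COQ8B are related members of an ancient family of atypical kinase-like proteins, and their genes stood at opposite ends of the values below. Because short reads can be split between related genes, the longest complete coding sequence of each gene among its protein-coding GENCODE M21 transcripts was aligned. The Coq8a coding sequence had 1938 bases and that of Coq8b had 1602 bases, with 68.8% identity over 1575 aligned bases. The longest run of identical bases was 16, and the transcripts of the pair had no run of 50 bases in common.

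Of the 10 genes, 8 had a matching RefSeq promoter entry (GRCm38.p6), with 10 windows in all. The 250 bases before the start site are shown for the most abundant member and for a pair of others that were also higher with Rk2. Capitals mark a GC box (GGGCGG), an ETS core (CCGGAA), an NRF1 palindrome core or a CCAAT box (CCAAT), each searched on both strands. Coq8a has 2 windows on the minus strand of chromosome 1.
Coq8a, chr1:180196021-180196270: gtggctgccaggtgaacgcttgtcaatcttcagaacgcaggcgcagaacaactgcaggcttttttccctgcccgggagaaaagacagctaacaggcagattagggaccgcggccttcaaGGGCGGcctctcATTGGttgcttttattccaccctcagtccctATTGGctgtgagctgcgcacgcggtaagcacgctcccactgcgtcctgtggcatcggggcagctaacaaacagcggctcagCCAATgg
Coq8a, chr1:180193486-180193735: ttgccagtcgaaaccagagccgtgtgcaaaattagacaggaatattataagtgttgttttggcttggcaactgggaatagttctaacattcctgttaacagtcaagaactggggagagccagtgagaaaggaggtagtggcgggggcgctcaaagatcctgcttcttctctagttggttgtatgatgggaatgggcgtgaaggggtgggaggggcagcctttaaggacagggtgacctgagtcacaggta
Coq9, chr8:94838163-94838412, plus strand: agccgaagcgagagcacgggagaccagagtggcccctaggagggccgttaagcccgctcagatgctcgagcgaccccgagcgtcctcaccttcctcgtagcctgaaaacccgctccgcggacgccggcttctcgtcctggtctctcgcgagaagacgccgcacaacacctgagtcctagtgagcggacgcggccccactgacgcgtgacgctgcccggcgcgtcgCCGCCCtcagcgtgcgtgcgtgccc
Coq2, chr5:100674257-100674506, minus strand: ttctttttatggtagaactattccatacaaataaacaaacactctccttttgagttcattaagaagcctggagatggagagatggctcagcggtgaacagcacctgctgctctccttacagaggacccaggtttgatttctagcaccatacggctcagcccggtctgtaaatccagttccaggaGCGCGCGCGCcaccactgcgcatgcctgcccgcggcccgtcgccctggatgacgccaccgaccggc

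Over the 10 member windows, 4 held the GC box, against 32.7% of 32851 windows of the same length from all genes. The ETS core stood in 3 of 10 windows (12.0% of all windows), the NRF1 palindrome core in 1 (4.98%), the CCAAT box in 3 (33.8%) and the TATA box (TATAAA) in 0 (12.4%). The median GC content was 52.2% in the member windows and 52.4% in all windows. In the Coq6 window, a GC box and a CCAAT box overlapped. With so few windows these are counts of letters, and no factor was measured.

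All 10 genes passed the filter on low counts, which left 12411 genes, with 26 to 17104 counts per member and library. Total counts ran from 16809613 to 35618074 per library. Of the 10 genes, 8 had a higher level in I/R+Rk2 and 2 a lower one (Pdss1 and Coq8b), whereas 49.6% of all genes tested were higher. For the members, the median log2 fold change was 0.34, against -0.01 over all genes tested. By edgeR's quasi-likelihood test over all genes, 4 members passed an adjusted p of 0.05 as higher (Coq2, Coq5, Coq8a and Coq9) and 1 as lower (Coq8b), whereas 43.9% of all genes tested passed, 20.3% as higher and 23.7% as lower. A fold above 2 was seen in 2 of these, Coq8a as higher and Coq8b as lower, while 14.6% of all genes passed both limits, 3.17% as higher and 11.4% as lower. These counts are part of what the set was chosen on. They are given here as a description.

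**Figure D1:**
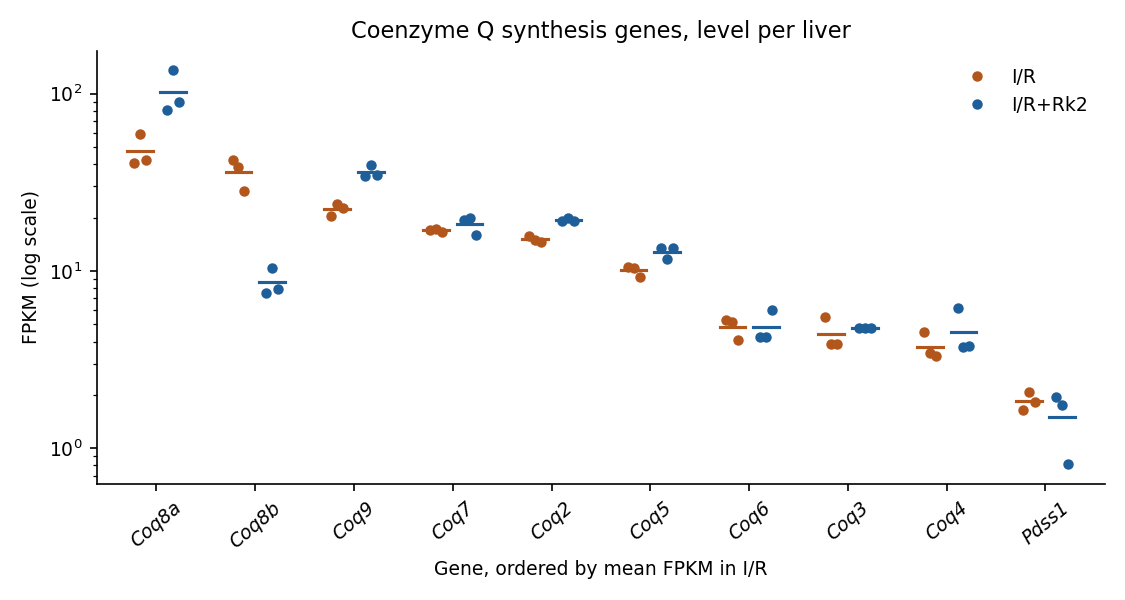
Level of the 10 coenzyme Q synthesis genes in each liver, in FPKM (fragments scaled to transcript length and to mapped fragments per library) on a log axis, ordered by the mean in I/R. Each point is 1 of 3 livers of a group and each bar is the group mean. Coq8b had 28.2 to 42.4 FPKM in I/R and 7.55 to 10.4 in I/R+Rk2, and the other 9 genes kept their order but for Coq2 and Coq7.

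Levels were compared between genes in FPKM, which accounts for transcript length. In I/R livers, the order by mean FPKM was Coq8a, Coq8b, Coq9, Coq7, Coq2, Coq5, Coq6, Coq3, Coq4 and Pdss1, from 47.4 ± 10.1 (SD, n = 3) down to 1.86 ± 0.219 FPKM. The livers' ranges overlapped between Coq8a and Coq8b, between Coq6 and Coq3, and between Coq3 and Coq4, so those neighbours in the order did not differ beyond their spread. In I/R+Rk2 livers, the order was Coq8a, Coq9, Coq2, Coq7, Coq5, Coq8b, Coq6, Coq3, Coq4 and Pdss1, with 102 ± 29.2 FPKM for Coq8a at the top. Coq8b was thus second in I/R and sixth in I/R+Rk2. The ranges of Coq2 and Coq7, of Coq6 and Coq3, and of Coq3 and Coq4 overlapped in that group.

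Coq8b (chr7:27233023-27257950, plus strand, GRCm38), whose human counterpart is known from inherited kidney disease with low coenzyme Q, was the member that was lower with Rk2 in every liver. Its normalised read counts, in CPM (counts scaled to the library size, adjusted by the trimmed mean of M values, TMM), were 66.9, 66.6 and 55.1 in the I/R livers. They were 14.0, 15.0 and 14.2 CPM in the I/R+Rk2 livers. The lowest I/R liver was thus far above the highest I/R+Rk2 liver, and the I/R+Rk2 livers lay within a narrow range (coefficient of variation 3.55%, against 10.7% in I/R). The log2 fold change of I/R+Rk2 over I/R was -2.12 ± 0.11 (SE, 95% interval -2.37 to -1.87), a level 4.35-fold higher in I/R. In FPKM the values were 42.4, 38.6 and 28.2 in I/R and 7.55, 10.4 and 7.90 in I/R+Rk2.

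Coq8a (chr1:180165238-180199602, minus strand), whose human counterpart is known from an inherited cerebellar ataxia, differed the other way. Its 3 I/R livers had 109, 195 and 135 CPM, against 284, 506 and 335 CPM with Rk2. The groups did not overlap, but the spread within each was wide, with coefficients of variation of 29.9% and 31.0%. Replicate 2 was the highest liver in each group. The log2 fold change was 1.36 ± 0.28 (95% interval 0.71 to 2.003), or 2.56-fold higher in I/R+Rk2.

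The ratio of Coq8b to Coq8a in FPKM does not depend on how the libraries were scaled. Without Rk2 this ratio was 1.04, 0.654 and 0.664, and with Rk2 it was 0.0934, 0.0772 and 0.0879. Its mean was 0.787 ± 0.222 (SD, n = 3) in I/R and 0.0862 ± 0.00826 in I/R+Rk2, and the groups did not overlap. Coq8b made up 19.2% to 25.9% of the summed FPKM of the 10 genes in I/R and 3.93% to 4.15% in I/R+Rk2, whereas Coq8a made up 24.8% to 33.0% and 42.1% to 53.8%. Taken as a pair, they made up 48.0% to 54.7% in I/R and 46.0% to 58.0% in I/R+Rk2, ranges that overlap. The summed FPKM of the other 8 genes was 76.4 to 81.0 in I/R and 98.8 to 106 in I/R+Rk2.

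**Figure D2:**
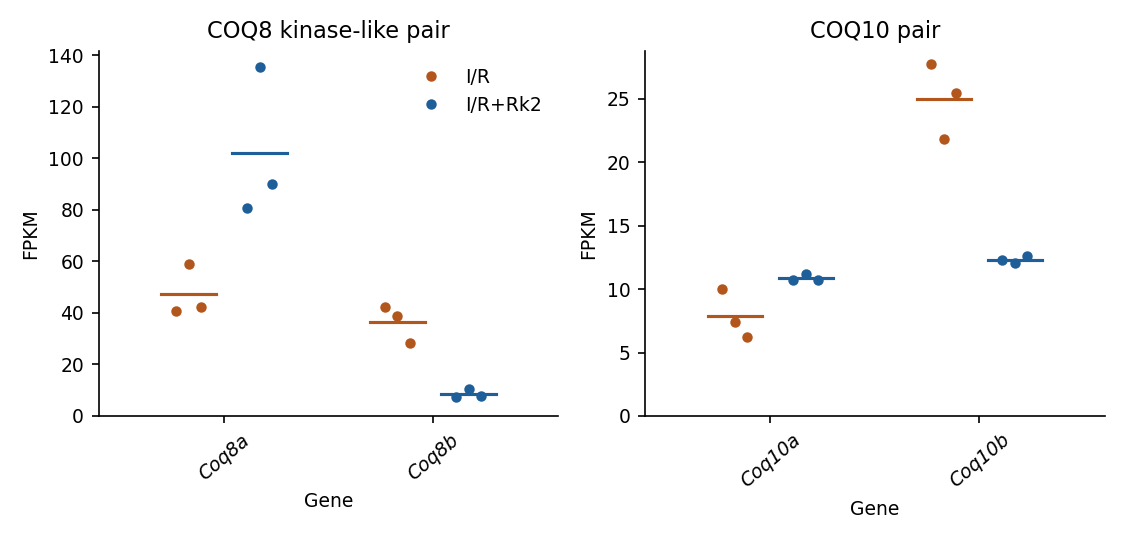
FPKM in each liver for the pair Coq8a and Coq8b (left) and the pair Coq10a and Coq10b (right), on linear axes from 0. Each point is 1 of 3 livers of a group and each bar is the group mean. In both pairs, 1 gene was higher and the other lower in I/R+Rk2, and the ratio of Coq10b to Coq10a was 3.26 ± 0.702 (SD) in I/R and 1.13 ± 0.0489 in I/R+Rk2.

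The genes of the first steps had differences of unlike size, a contrast that was not tested. Pdss1 (chr2:22895522-22940266, plus strand), a subunit of the tail-building synthase, was the least abundant member, with 2.66, 3.59 and 2.99 CPM in I/R and 3.11, 3.08 and 1.60 CPM in I/R+Rk2. The groups overlapped, and the log2 fold change of -0.23 ± 0.29 had a 95% interval from -0.91 to 0.45. Its sign rested on replicate 3 of I/R+Rk2, which had 26 counts, since without that liver the value was 0.01. Pdss2, the partner subunit and not a member of the set, rose by 0.63 ± 0.13 on the log2 scale (edgeR adjusted p = 0.0087), from 6.89 ± 0.484 to 10.7 ± 1.20 CPM, but did not pass in the FPKM fits (0.33 on log2(FPKM + 1), limma adjusted p = 0.11).

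Coq2 (chr5:100654723-100675140, minus strand), the prenyltransferase that joins tail and ring, had 23.3, 24.7 and 23.8 CPM in I/R and 34.2, 35.3 and 38.5 CPM in I/R+Rk2. The I/R livers lay close together, and all 3 I/R+Rk2 livers were above them. The log2 fold change was 0.59 ± 0.09 (95% interval 0.39 to 0.79), and 0.34 on the log2(FPKM + 1) scale.

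Coq6, Coq3, Coq5 and Coq7 encode the enzymes that modify the ring. Coq5 (chr5:115279666-115296972, plus strand), the C-methyltransferase, had 18.7, 20.8 and 18.5 CPM in I/R and 28.1, 25.8 and 29.9 CPM in I/R+Rk2, with no overlap. Its log2 fold change was 0.53 ± 0.10 (95% interval 0.29 to 0.77). On the log2(FPKM + 1) scale the value was 0.32, and Coq5 was then the member that no longer passed the threshold.

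The other 3 ring-modifying genes had smaller values, with 95% intervals that overlapped that of Coq5, a contrast that was not tested. Coq3 (chr4:21879673-21912162, plus strand), the O-methyltransferase, had 12.4, 9.91 and 10.0 CPM in I/R and 12.7, 13.6 and 13.5 CPM in I/R+Rk2. These groups were separated by a small gap, and the log2 fold change was 0.31 ± 0.13 (95% interval 0.01 to 0.60). Coq7 (chr7:118509659-118533356, minus strand), the late-acting hydroxylase, had 15.6, 17.1 and 16.7 CPM in I/R and 19.7, 20.6 and 17.5 CPM with Rk2. Its log2 fold change was 0.23 ± 0.11 with an interval from -0.02 to 0.48. On the log2(FPKM + 1) scale, Coq3 was at 0.10 and Coq7 at 0.11. Coq3 passed the threshold only with upper-quartile scaling and without replicate 1 of I/R (0.42).

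Coq6 (chr12:84361657-84373796, plus strand), a flavin-dependent hydroxylase, had 7.04, 7.14 and 6.06 CPM in I/R. It had 6.81, 7.79 and 10.2 CPM in I/R+Rk2. The groups overlapped, since replicate 1 of I/R+Rk2 lay below a pair of the I/R livers. The log2 fold change was 0.29 ± 0.18 (95% interval -0.13 to 0.70), and on the log2(FPKM + 1) scale it was -0.01, so its direction changed with the unit.

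Coq4 and Coq9 encode supporting proteins of complex Q. Coq9 (chr8:94838321-94854895, plus strand), a lipid-binding protein that presents the intermediate to COQ7, had 28.1, 39.1 and 40.1 CPM in I/R and 62.5, 76.7 and 60.2 CPM in I/R+Rk2. Every I/R+Rk2 liver was well above every I/R liver, and the log2 fold change was 0.89 ± 0.16 (95% interval 0.51 to 1.27), or 1.86-fold. The difference of Coq9 was thus larger in value than that of its partner Coq7, a contrast that was not tested.

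Coq4 (chr2:29787493-29797935, plus strand) had 5.53, 5.58 and 4.31 CPM in I/R and 7.73, 6.51 and 5.77 CPM in I/R+Rk2. The groups were separated by a narrow gap, and the log2 fold change was 0.38 ± 0.18 (95% interval -0.03 to 0.79), or 0.21 on the log2(FPKM + 1) scale. Across the set, the groups did not overlap in CPM for 8 of the 10 genes, 7 higher and 1 lower with Rk2, whereas 57.4% of all genes tested did not overlap, 27.1% as higher and 30.3% as lower. In FPKM, Coq3, Coq4 and Coq7 overlapped as well, which left Coq2, Coq5, Coq8a, Coq8b and Coq9 with separate groups in both units.

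**Figure D3:**
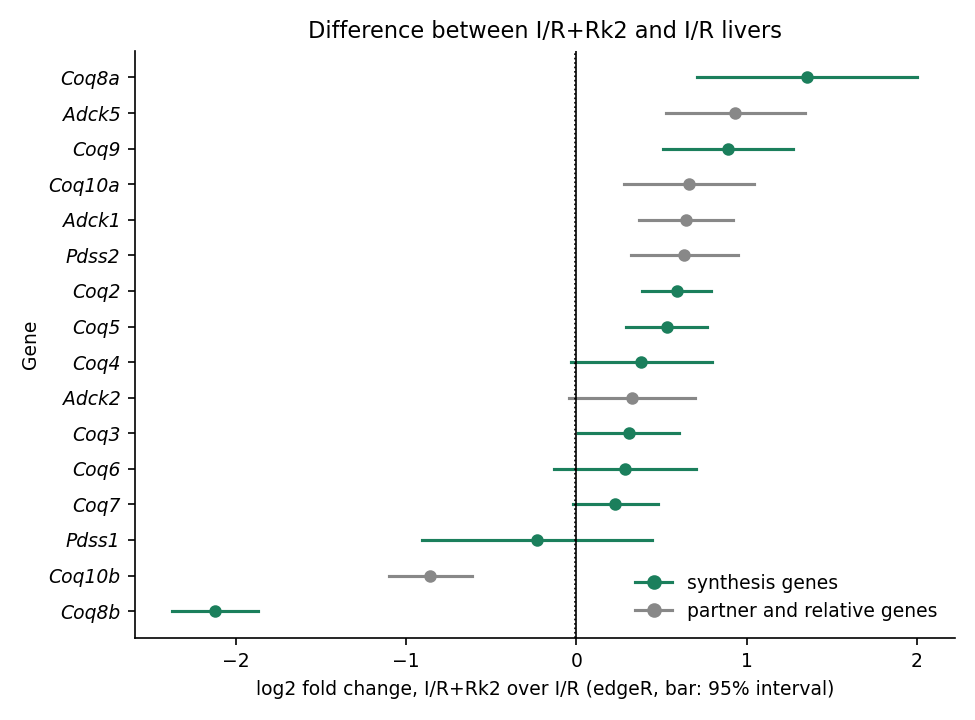
Log2 fold change of I/R+Rk2 over I/R by edgeR for the 10 coenzyme Q synthesis genes (green) and for partner and relative genes (grey), with 95% intervals as bars. The solid line marks 0 and the dotted line marks the median of all genes tested (-0.01). Coq8b lay at -2.12 and Coq8a at 1.36, the other members lay between -0.23 and 0.89, and Coq10b at -0.86 was the only one of the 6 partner and relative genes below 0.

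Some counts may share reads with other genes. No strand setting is given in the sources used here, so reads from genes that overlap on opposite strands cannot be told apart. Coq4 is the most exposed, since 921 of its 3399 exon bases overlap Trub2 on the other strand. Trub2 had 10.6 ± 0.299 CPM in I/R and 6.65 ± 2.14 with Rk2, a difference of -0.65 ± 0.23 on the log2 scale. Coq8b overlaps the antisense transcript Gm15567 over 455 of 5586 exon bases and the same-strand transcript Gm44641 over 153, and neither of these was in the count table. Coq8a, Coq6, Pdss1 and Coq9 overlap Cdc42bpa, Fam161b, Abi1 and Ciapin1 over 366, 128, 194 and 38 bases. Of the 50-base runs in Coq2 transcripts, 7.63% also occur in Gm6728.

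RNA from a whole liver cannot tell fewer cells of a type from less RNA per cell. The summed CPM of 7 hepatocyte markers was 57218 to 67791 in I/R and 89842 to 110825 in I/R+Rk2, with 4 markers called higher (Alb, Ttr, Cps1 and Asgr1) and 1 called lower (Hnf4a). Monocyte markers were called lower for 8 of 8 genes with a median log2 fold change of -4.34. Their summed CPM (1597 to 1920 against 1128 to 1184) was mostly Fn1, which fell by 0.49 on the log2 scale and which hepatocytes also make, while Ccr2 was at -4.41 and Vcan at -5.61. Neutrophil markers were called lower for 7 of 8 genes (median -2.11, summed CPM 467 to 593 against 88.4 to 207). All 8 Kupffer cell markers had a negative value (median -0.55), and 1 of them was called lower. Stellate cell markers were called lower for 2 of 7 genes and cholangiocyte markers for 2 of 5. Endothelial markers split into 3 called higher and 2 called lower of 6. Of all genes tested, 20.3% were called higher and 23.7% lower. No marker was at 0 in either group. The part of these cell type markers in the differences of the coenzyme Q genes was not tested.

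The genes around the pathway were read from 10 lists with 76 tested genes. Of these, 53 passed an adjusted p of 0.05 by edgeR, 47 of them higher and 6 lower in I/R+Rk2, with a median log2 fold change of 0.50. With limma on log2(FPKM + 1) without a filter, 35 passed, while 4133 of all 15465 genes in that fit passed. Over all genes tested, 43.9% passed by edgeR, 20.3% as higher and 23.7% as lower. The counts of each list below are to be set beside these shares. Of the 10 lists, 9 had a median above 0, the side on which 8 of the 10 members and 6 of the 7 tested hepatocyte markers lay. The lists were drawn up with earlier results of these data known, so their counts are not independent of one another or of the members.

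**Figure D4:**
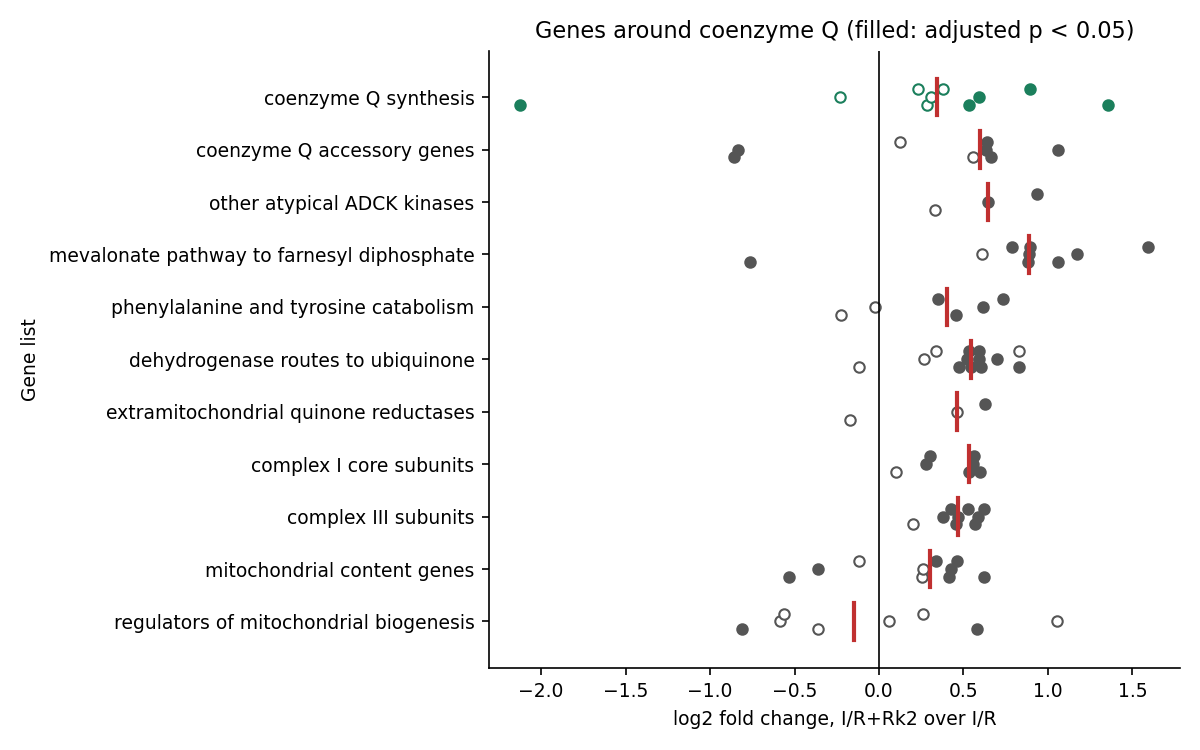
Log2 fold change of I/R+Rk2 over I/R for the coenzyme Q synthesis genes (green, top row) and 10 lists of related genes (grey), 1 point per gene. Filled points had an edgeR adjusted p below 0.05 and the red bar is the median of each list. List medians ran from -0.15 for regulators of mitochondrial biogenesis to 0.89 for the mevalonate pathway.

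Among the accessory genes of coenzyme Q, 4 of 8 tested were called higher and 2 lower (median 0.60). Coq10a and Coq10b encode lipid-binding proteins thought to help coenzyme Q reach its sites of use. Coq10a rose by 0.66 ± 0.16 on the log2 scale (edgeR adjusted p = 0.016), with 12.4, 9.83 and 8.21 CPM in I/R and 15.6, 15.2 and 17.1 CPM in I/R+Rk2. Coq10b fell by 0.86 ± 0.10 on the log2 scale (edgeR adjusted p = 0.0012), with 44.8, 38.5 and 46.4 CPM in I/R and 22.6, 23.6 and 25.4 CPM in I/R+Rk2. The ratio of Coq10b to Coq10a in FPKM was 2.77 to 4.06 in I/R and 1.08 to 1.17 in I/R+Rk2. As with the Coq8 pair, the groups did not overlap in CPM for either gene, which was so for 57.4% of all genes tested. The call of Coq10a was lost with library size alone (edgeR adjusted p = 0.085) and in the FPKM fits (0.058 to 0.092 by limma).

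Stard7, a lipid transfer gene linked to the synthesis and transport of coenzyme Q, rose from 27.4 ± 2.12 to 57.2 ± 7.63 CPM, which is 1.06 ± 0.12 on the log2 scale (adjusted p = 0.00098 by edgeR). Pptc7, a mitochondrial phosphatase linked to COQ7, fell from 16.8 ± 0.654 to 9.38 ± 0.981 CPM, which is -0.83 ± 0.12 on the log2 scale (adjusted p = 0.0021 by edgeR). The remaining relatives of the COQ8 proteins were the ADCK genes. Adck5 rose by 0.93 ± 0.17 and Adck1 by 0.64 ± 0.12 on the log2 scale (edgeR adjusted p = 0.0054 and 0.0052). In the FPKM fits Adck1 missed the threshold (limma adjusted p = 0.059 to 0.084). Adck2, at 0.33 ± 0.16, did not pass (edgeR adjusted p = 0.13). Coq8b was thus the 1 gene of these 5 kinase-like genes with a negative value.

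The mevalonate list, which supplies the tail, had 7 genes called higher and 1 lower of 9 (median 0.89). Mvd, a decarboxylase of the pathway, had 8.34, 12.2 and 9.29 CPM in I/R and 45.2, 24.5 and 20.4 CPM with Rk2. Its log2 fold change was 1.59 ± 0.31, with an edgeR adjusted p of 0.0065. Idi1 and Acat2 rose by 0.89 ± 0.18 and 0.79 ± 0.14. Ggps1, which makes geranylgeranyl diphosphate, was the gene called lower, at -0.77 ± 0.26 (edgeR adjusted p = 0.045, named after its value was seen). It kept the call in 7 of all 17 alternatives. Among these were 6 fits that left out a liver, of which 1 kept it, that without replicate 1 of I/R+Rk2 (-0.53). Most of these genes also serve cholesterol synthesis. In the list of phenylalanine and tyrosine catabolism, 4 of 6 genes were called higher (median 0.40), among them Fah at 0.61 ± 0.08, Hgd at 0.73 ± 0.11 and Hpd at 0.46 ± 0.13. Hpd lost the call in the FPKM fits, under scaling by library size alone and without any 1 liver other than replicate 1 of I/R+Rk2 (0.26 to 0.48 over these fits).

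The enzymes that use coenzyme Q were read next. Of 13 genes on routes by which dehydrogenases reduce it, among them 4 subunits of complex II and both subunits of the electron transfer flavoprotein, 9 were called higher and 0 lower (median 0.55), with Chdh, the choline dehydrogenase, at 0.70 ± 0.10, Etfb, a subunit of that flavoprotein, at 0.61 ± 0.10 and Sdhd, a subunit of complex II, at 0.55 ± 0.10. Core subunits of complex I were called higher for 6 of 7 genes (median 0.53), with Ndufs7 at 0.56 ± 0.08 and Ndufs8 at 0.60 ± 0.09. Subunits of complex III were called higher for 8 of 9 genes (median 0.47), with Uqcrb at 0.62 ± 0.09. Of the 3 quinone reductases outside the respiratory chain, Cyb5r3 rose by 0.63 ± 0.15 (edgeR adjusted p = 0.015), a call lost without replicate 3 of I/R (adjusted p = 0.057) or replicate 2 of I/R+Rk2 (0.055). Aifm2, also known as FSP1, stood at 0.46 ± 0.21 and Nqo1 at -0.17 ± 0.21, and neither passed (edgeR adjusted p = 0.11 and 0.54).

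General mitochondrial genes were mixed. Of 10 mitochondrial content genes, 5 were called higher and 2 lower (median 0.30), with citrate synthase (Cs) at 0.62 ± 0.12, Phb at 0.46 ± 0.09 and the chaperone gene Hspd1 at -0.53 ± 0.10. Of 8 regulators of mitochondrial biogenesis, 1 was called higher and 1 lower (median -0.15). Esrra, a nuclear receptor of this group, rose by 0.58 ± 0.13 (edgeR adjusted p = 0.0097), and Gabpb1, a subunit of an ETS factor, fell by 0.81 ± 0.14 (edgeR adjusted p = 0.0042). In the FPKM fits Esrra and Phb missed the threshold (0.28 to 0.32 and 0.28 to 0.29), and Phb also with library size alone. Ppargc1b stood at 1.05 ± 0.36 with a mean of 0.879 CPM in I/R (edgeR adjusted p = 0.0501), and passed in 4 of the alternatives run.

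The genes beside the members on the chromosome were also read, a choice made after values had been seen, so their values are given without a p-value. Coq8b lies between Itpkc, an inositol trisphosphate kinase gene 4362 bases away, and Numbl, a gene for an adaptor protein that starts 483 bases beyond its end. Itpkc had 38.4, 58.8 and 44.8 CPM in I/R and 13.2, 12.7 and 12.3 CPM with Rk2. Its log2 fold change was -1.89 ± 0.16. Numbl had 5.79, 12.0 and 7.49 CPM in I/R and 1.22, 0.711 and 1.17 CPM with Rk2. Its log2 fold change was -3.06 ± 0.35. All 3 adjacent genes were thus lower in every I/R+Rk2 liver than in any I/R liver, as were 30.3% of all genes tested. Psen2, which lies 27402 bases from Coq8a, had a log2 fold change of 1.27 ± 0.16, on the same side of 0 as Coq8a. Cdc42bpa, on the other side of Coq8a, was at -0.44 ± 0.20, the opposite direction. Itpripl2 and Tmc7 beside Coq7 (-2.38 and -1.29) and Plac8 beside Coq2 (-1.69) also lay opposite to their member. Apbb1ip beside Pdss1 was at -3.02, on the same side of 0 as Pdss1 (-0.23), whose groups overlapped. Of 18 neighbours tested, 6 were called lower and 1 higher, against 23.7% and 20.3% of all genes tested.

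**Figure D5:**
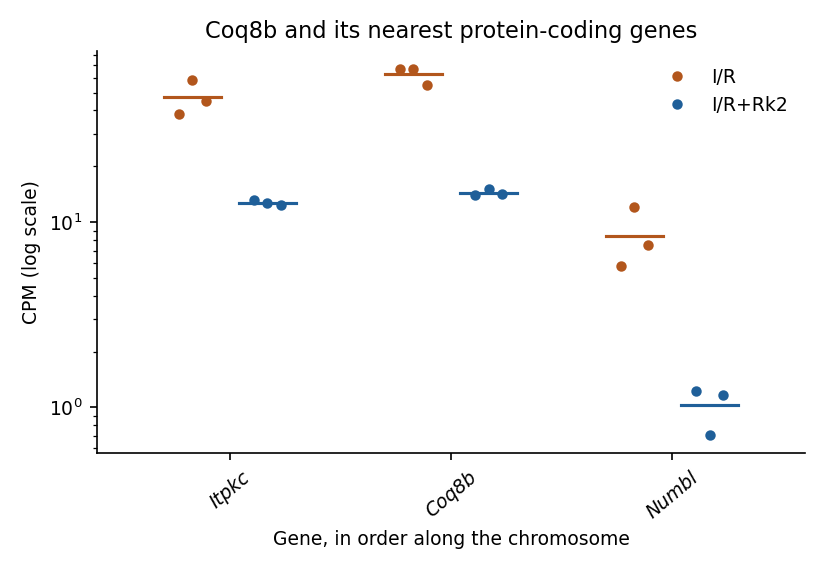
Normalised read counts (CPM, log axis) of Coq8b and the nearest protein-coding gene on each side, in order along the chromosome. Each point is 1 of 3 livers of a group and each bar is the group mean. For all 3 genes the I/R+Rk2 livers lie below the I/R livers, with 12.3 to 13.2 CPM against 38.4 to 58.8 for Itpkc and 0.711 to 1.22 against 5.79 to 12.0 for Numbl.

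The genes whose pattern was most like that of Coq8b were found from the root mean square difference of centred log2(CPM + 1) over the 6 livers, among 11387 other genes with a mean of at least 1 CPM. Mt1, the gene for metallothionein 1, was nearest (0.0990), with 997, 885 and 762 CPM in I/R and 233, 206 and 226 CPM in I/R+Rk2. Gm7694 and Usp31 (0.113 each), Ms4a8a (0.120) and D10Wsu102e (0.124) followed. With 6 livers in 2 groups, this measure mostly reflects the size of the group difference on the log2(CPM + 1) scale. The added 1 shrinks the difference of a gene at low CPM. Ms4a8a, with a mean of 4.04 CPM in I/R and 0.0691 in I/R+Rk2, had an edgeR log2 fold change of -5.40, against -2.12 for Coq8b.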

How the data were processed

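RNA was measured in 6 livers. The authors checked reads with FastQC 0.11.5, aligned them to mm10 with HISAT2 2.2.1 and estimated expression with StringTie 1.3.3. They deposited whole-number counts per gene (15454 rows) and FPKM values (21948 rows). StringTie estimates expression, so the whole numbers are probably rounded estimates rather than directly counted reads, which matters most at low counts. The annotation and strand setting are not given in the sources used here. For the count table, edgeR 4.0.16 was run in R 4.3.3 (filterByExpr, 12411 genes, TMM scaling, quasi-likelihood F test on all 6 livers, no covariates, Benjamini-Hochberg adjustment over all genes). A positive log2 fold change is a higher level in I/R+Rk2. The SE is the absolute log2 fold change divided by the square root of F.

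FPKM values were tested with limma 3.58.1 on log2(FPKM + 1). DESeq2 1.42.0, other scalings, filters and pseudocounts, a transcript length trend, a replicate block and leaving out each liver were alternatives. The named genes were all members, at most 3 genes with the smallest p of each list, direct partners of members, and the 5 genes nearest to Coq8b in pattern. Outside this rule, Ggps1, cell type markers, and genes that overlap or lie beside members were also named. The members and lists were chosen with earlier results of these data known. No pair of libraries in a group came near sampling noise (chi-square per degree of freedom 31.4 to 74.8), so none was taken for a library deposited more than once. The labels name no batch. Sequences came from RefSeq promoter windows (GRCm38.p6) and GENCODE M21 transcripts, read with Biopython 1.88. A stretch of the aligned Coq8a and Coq8b coding sequences is not reported here.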

Additional observations from a re-analysis of the deposited data

How the results depend on the processing

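Over 17 alternatives, 4 to 6 of the 10 coenzyme Q genes passed the threshold (5 as reported). The number of all genes that passed ran from 3781 of 9914 on log2(FPKM + 0.1) to 5575 of 12411 with upper-quartile scaling (5454 of 12411 as reported). The log2 fold change of Coq8b was -2.29 with library size alone and -1.95 in both log2(FPKM + 1) fits, and leaving out each liver gave -2.21 to -2.07. The median of the 10 genes (0.34) was 0.18 with library size alone, 0.183 on log2(FPKM + 0.1) and 0.157 on log2(FPKM + 1) with and without a filter. Leaving out each liver gave 0.260 to 0.434, the latter without I/R replicate 1. Library size alone moved the median of all genes to -0.17 and the share of lower calls from 53.9% to 72.5%, and the members' median stayed 0.206 to 0.419 above that of all genes in every fit. The 53 list genes called became 35 with log2(FPKM + 1) and no filter, where 4133 of all 15465 genes passed. They became 41 to 52 with each liver left out, where 3933 to 5459 of 12565 to 12664 genes passed. Of the other values, 680 were rated as unchanged, 41 lost and 5 gained the call, and 19 moved by more than 1 SD. For members other than Coq8b, unchanged meant a move of less than 1 SD. A change of their call, or of sign in a member not called, was thus not counted. For the genes outside the set, unchanged meant the same call and direction. No called value changed sign. Same-numbered livers of the groups did not deviate together (correlations -0.0559, 0.00522 and -0.0579), so the numbers were not taken as pairs. A fit with the replicate block called 5 members, 56 list genes and 4713 of all 12411 genes, with Coq8b at -2.12 and a member median of 0.343. Pdss1 had the fewest counts (26 in 1 liver).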
